A study of Mus musculus with 3 samples.

Results

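The accessible regions listed for sciATACv3 were compared with those listed for sciATACv2, which are successive versions by name of one single-cell ATAC-seq protocol applied to mouse whole brain. Every peak of both lists was taken, 850991 of sciATACv2 and 512023 of sciATACv3, which is 1363014 of the 1985768 peaks in the 3 lists of the series. The sciATACv1 list served only as an outside reference. In each version, nuclei of C57BL6 whole brain were freed by mincing and douncing in Nuclei Isolation Buffer (NIB). They received a first barcode by tagmentation in 96-well plates, were pooled, and were then spread over a chip of 5184 nanowells on the iCell8 instrument for the second barcode, added by PCR. The label of each library gives the same strain, tissue and protocol, and names the version only. The sources used here do not say what was changed from sciATACv2 to sciATACv3, or how many animals were used and of which sex or age.

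There was 1 library of each version, so no difference below has a replicate check and none was tested. Intervals are exact 95% intervals for counting error alone. The lists hold positions without counts, scores or cell barcodes, so the depth behind a peak is unknown, and a library with fewer nuclei or reads cannot be told apart from one with fewer accessible regions. For the same reason a smaller number of nuclei of one cell type cannot be told apart from less accessible chromatin in each of its nuclei. The peaks met the starts of nearly all brain marker genes in both libraries. A start peak was present for 87 genes in sciATACv2 and 85 in sciATACv3, of 89 genes on 11 lists of brain cell type markers with an annotated start. These are 97.8% and 95.5%, against 81.7% and 76.6% of all protein-coding genes with an annotated start.

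In ATAC-seq, the Tn5 transposase inserts sequencing adapters into DNA that is not wrapped in nucleosomes or bound tightly by other proteins, and places with many insertions are called as peaks. Promoters of broadly used genes often lie in CpG islands, stretches rich in the dinucleotide CG, which tend to be nucleosome-poor in most cell types. Promoters with few CG dinucleotides more often belong to genes used in 1 tissue, and enhancers, which lie far from starts, are accessible in fewer cell types still. In brain, which mixes neurons, glia and vascular cells, a pooled peak list is a union over all of them.

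The 6 promoters printed here show starts with many and with few CG dinucleotides, among start peaks found in both libraries or in 1 alone, including a CG-rich one without a sciATACv3 peak and a CG-poor one with a peak in both. Each is the RefSeq window of 300 bases, 250 before and 50 after an annotated start on GRCm38.p6, printed 5′ to 3′ on the gene's own strand, with each CG in capitals. Suz12 (chr11:79992856-79993155, plus strand) encodes a subunit of Polycomb repressive complex PRC2. Slc1a2 (chr2:102706188-102706487, plus strand) encodes the main glutamate transporter of astrocytes. Both had a start peak in each library. Ddx4 (chr13:112652261-112652560, minus strand), a germ cell RNA helicase, Ins1 (chr19:52264047-52264346, plus strand), an insulin gene of pancreatic islets, and Krt14 (chr11:100205981-100206280, minus strand), a keratin of basal epidermis, had one in sciATACv2 and not in sciATACv3. Ascl3 (chr7:109731683-109731982, minus strand), a basic helix-loop-helix factor, had one in sciATACv3 alone, and was chosen after its values were seen. The annotated starts of Slc1a2 and Krt14 lie inside the gene spans, chr2:102658239-102790784 and chr11:100203162-100207510, and not at their 5′ ends. What is given for the starts of Slc1a2 and Krt14 holds for these internal starts. The annotated start of Ddx4 also lies inside its gene span, chr13:112598333-112652633, but less than 1 kb from the 5′ end.
Suz12: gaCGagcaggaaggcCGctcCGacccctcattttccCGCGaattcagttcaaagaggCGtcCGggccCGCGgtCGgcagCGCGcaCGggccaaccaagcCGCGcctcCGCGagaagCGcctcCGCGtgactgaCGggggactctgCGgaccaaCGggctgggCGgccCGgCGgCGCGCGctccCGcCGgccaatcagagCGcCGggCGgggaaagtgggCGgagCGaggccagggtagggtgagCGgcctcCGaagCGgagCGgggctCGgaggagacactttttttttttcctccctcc
Slc1a2: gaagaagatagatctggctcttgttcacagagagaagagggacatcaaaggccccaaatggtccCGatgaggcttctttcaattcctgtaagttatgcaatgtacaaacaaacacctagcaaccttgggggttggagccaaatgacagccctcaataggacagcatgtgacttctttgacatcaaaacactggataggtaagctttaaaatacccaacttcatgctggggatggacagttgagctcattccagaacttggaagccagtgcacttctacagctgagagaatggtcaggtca
Ddx4: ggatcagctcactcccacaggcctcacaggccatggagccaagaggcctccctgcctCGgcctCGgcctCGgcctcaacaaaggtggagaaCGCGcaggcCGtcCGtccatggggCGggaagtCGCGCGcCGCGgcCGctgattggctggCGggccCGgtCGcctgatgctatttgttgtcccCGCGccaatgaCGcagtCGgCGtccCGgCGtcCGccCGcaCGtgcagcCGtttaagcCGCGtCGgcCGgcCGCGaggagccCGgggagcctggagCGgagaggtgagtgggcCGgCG
Ins1: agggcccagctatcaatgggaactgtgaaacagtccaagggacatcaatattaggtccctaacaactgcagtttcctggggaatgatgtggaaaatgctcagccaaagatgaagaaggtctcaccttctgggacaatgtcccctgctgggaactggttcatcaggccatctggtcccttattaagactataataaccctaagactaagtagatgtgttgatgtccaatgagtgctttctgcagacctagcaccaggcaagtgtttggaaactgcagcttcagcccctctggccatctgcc
Krt14: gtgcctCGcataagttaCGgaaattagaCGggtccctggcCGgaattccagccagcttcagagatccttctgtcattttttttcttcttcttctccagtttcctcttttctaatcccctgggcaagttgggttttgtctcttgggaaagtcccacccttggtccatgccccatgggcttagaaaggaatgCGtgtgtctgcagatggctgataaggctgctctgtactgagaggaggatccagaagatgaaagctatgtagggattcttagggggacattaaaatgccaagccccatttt
Ascl3: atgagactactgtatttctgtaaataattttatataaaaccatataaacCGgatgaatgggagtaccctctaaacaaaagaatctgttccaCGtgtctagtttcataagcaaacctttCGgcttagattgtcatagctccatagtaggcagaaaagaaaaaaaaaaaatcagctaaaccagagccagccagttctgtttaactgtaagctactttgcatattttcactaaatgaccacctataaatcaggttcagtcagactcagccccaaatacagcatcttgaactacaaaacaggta
The window of Suz12 held 41 CG dinucleotides and that of Ddx4 38, against 5 in Krt14, 3 in Ascl3, 1 in Slc1a2 and 0 in Ins1. Within 1 kb of its start, Suz12 had 1598 bp covered by peaks in sciATACv2 and 1946 bp in sciATACv3. Slc1a2 had 1012 bp covered in sciATACv2 and 880 bp in sciATACv3. The widest start peak of Ddx4 in sciATACv2 was 694 bp, that of Ins1 836 bp and that of Krt14 500 bp. Ascl3 had a start peak of 3161 bp in sciATACv3. The sciATACv1 list held a peak at the starts of Suz12, Slc1a2 and Ddx4 and none at those of Ins1, Krt14 and Ascl3.

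The sciATACv3 list was shorter and its peaks were wider. It had 0.602 times as many peaks as the sciATACv2 list and covered 0.732 times as many bases, 490 Mb against 669 Mb. The shorter list had fewer peaks in each width class up to 1500 bp, and most of all at the narrowest width. Peaks of 500 bp, the narrowest width in both lists, made up 53.1% of sciATACv2 peaks and 42.2% of sciATACv3 peaks, and their number in sciATACv3 was 0.478 times that in sciATACv2. Wide peaks went the other way. Peaks over 1500 bp numbered 66975 in sciATACv2 and 84224 in sciATACv3, a ratio of 1.26, which was 1.51 for peaks over 2000 bp and 2.11 for peaks over 3000 bp. The mean width was 786 bp in sciATACv2 and 957 bp in sciATACv3, and the widest peaks measured 7606 bp and 7578 bp.

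Most sciATACv3 peaks lay on sciATACv2 peaks, and the reverse held less often. A peak is called met here where it shares at least 1 bp with a peak of the other list. By that rule 86.3% of sciATACv3 peaks were met (442071 of 512023, 86.2 to 86.4%), against 58.7% of sciATACv2 peaks (499955 of 850991, 58.6 to 58.9%). The longer list covers more of the genome and so has more room to meet the peaks of the shorter one, and the shares are given in both directions for that reason. With gaps of under 500 bp allowed, the shares were 93.2% and 69.8%. In bases, 365 Mb were covered in both lists, which was 46.1% of the bases covered in either, 74.6% of those of sciATACv3 and 54.6% of those of sciATACv2.

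**Figure D1:**
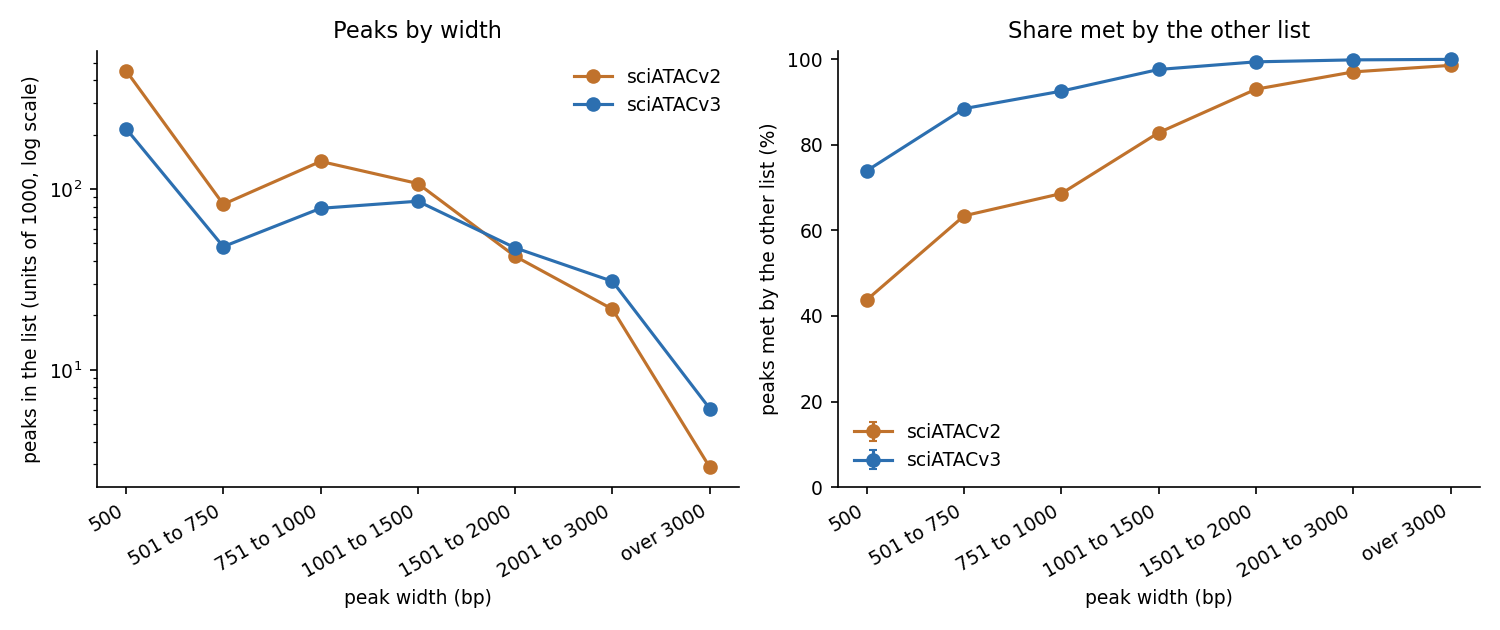
Number of peaks by width class (left, log axis, in units of 1000 peaks) and percent of them met by the other list (right, with exact 95% intervals that are smaller than the points). The sciATACv3 list has fewer peaks up to 1500 bp and more above it, and its share met is higher in every width class.

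The share met climbed with width in both lists, as the plot of width classes shows. It went from 74.0% at 500 bp to 97.6% over 1000 and up to 1500 bp in sciATACv3, and from 43.8% to 82.9% between the same classes in sciATACv2. A wide peak also has more room to meet another. Among the 6100 sciATACv3 peaks over 3000 bp, 1 was not met. It was 3032 bp wide and lay within Enah, an actin regulator of growing axons, at chr1:181901618-181904649, at a gap of 1468 bp from the nearest sciATACv2 peak, and it met a peak of sciATACv1. Of the 2890 sciATACv2 peaks over 3000 bp, 41 were not met. The widest of them measured 4173 bp, at chr16:18552787-18556959 in Gnb1l, and lay 4353 bp from the nearest sciATACv3 peak. Another of 4091 bp lay in Cacna2d3, an auxiliary calcium channel subunit, 662 bp from a sciATACv3 peak.

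Stretches listed as several peaks in sciATACv2 were often 1 peak in sciATACv3. A sciATACv3 peak met 2 or more sciATACv2 peaks in 93392 cases (18.2% of its list), while a sciATACv2 peak met 2 or more sciATACv3 peaks in 48904 cases (5.75%). Counting only sciATACv2 peaks that lay wholly within the sciATACv3 peak, the 93392 became 18610. The sciATACv3 peak over the most was 5192 bp wide, at chr4:152388889-152394080 by Chd5 and Kcnab2, a chromatin remodeler and a potassium channel subunit of neurons, and met 7. One of 6050 bp in Grin2b, an NMDA receptor subunit, met 6. In the other direction, a sciATACv2 peak of 7606 bp in Pde2a, a cyclic nucleotide phosphodiesterase, met 5 sciATACv3 peaks.

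Where 1 peak faced 1 peak, the lists placed it alike. Merging all overlapping peaks gave 810253 regions, of which 278384 (34.4%) held exactly 1 peak of each list. Among these pairs the midpoints lay a median of 94.5 bp apart, and 80.9% were within 250 bp. The sciATACv3 peak was wider in 36.7%, the sciATACv2 peak in 35.8%, and both had the same width in 27.5%. In such pairs, then, neither list held wider peaks throughout. A further 64518 regions held 1 sciATACv3 peak and several of sciATACv2, against 22211 with the reverse, and their median widths were 1957 bp and 1839 bp. Regions of sciATACv2 alone made up 43.3% and those of sciATACv3 alone 8.63%.

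Peaks that were not met differed in place between the lists. Those of sciATACv3 lay close to the other list, with a median gap of 494 bp to the nearest sciATACv2 peak and 50.3% within 500 bp. Those of sciATACv2 lay a median of 1291 bp from the nearest sciATACv3 peak, with 26.7% within 500 bp. The longer list leaves shorter gaps. Within gene spans lay 62.7% of the unmet sciATACv3 peaks and 54.2% of the unmet sciATACv2 peaks, against 71.6% and 71.9% of the met ones. The median distance to the nearest annotated start was 68.4 kb for unmet sciATACv3 peaks and 107 kb for unmet sciATACv2 peaks, and 62.5 kb and 62.0 kb for met ones. The same order held at equal width. Among peaks of 500 bp alone, 62.3% of unmet sciATACv3 and 53.4% of unmet sciATACv2 peaks lay within gene spans.

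The outside reference held more of the unmet sciATACv2 peaks than of the unmet sciATACv3 peaks. A sciATACv1 peak met 38.5% of the 351036 unmet sciATACv2 peaks and 20.01% of the 69952 unmet sciATACv3 peaks. At 500 bp these shares were 32.3% and 18.5%. Of the met peaks, sciATACv1 held 82.8% for sciATACv2 and 83.9% for sciATACv3.

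Over all its peaks, the sciATACv3 list was more genic. Gene spans held 70.4% of sciATACv3 peaks (70.2 to 70.5%) and 64.6% of sciATACv2 peaks (64.5 to 64.7%) by midpoint. With peaks over 500 bp alone the shares were 71.9% and 68.6%. Near starts, agreement was highest. Peaks centred within 0.5 kb of an annotated start were met in 98.5% of 11062 cases in sciATACv3 and in 90.6% of 12622 cases in sciATACv2. Between 1 and 5 kb from a start the shares met were 79.8% and 61.1%. Beyond 100 kb they were 85.6% in sciATACv3 and 52.0% in sciATACv2, so distance from starts separated the met and unmet peaks of sciATACv2 more than those of sciATACv3.

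Starts rich in CG dinucleotides carried a peak in both libraries almost without exception, and CG-poor starts carried one less often in sciATACv3. Among 21044 annotated starts of protein-coding genes, 83.0% had a sciATACv2 peak within 1 kb and 78.0% a sciATACv3 peak. With over 20 CG in the 300-base window, as at Suz12, the shares were 99.5% (99.3 to 99.6%) and 99.2% (99.02 to 99.43%) of 7151 starts. With 0 to 2 CG, as in the windows printed for Slc1a2 and Ins1, they were 38% (36.4 to 39.6%) and 27.9% (26.5 to 29.4%) of 3708 starts. Between these, the shares were 70.3% and 58.8% at 3 to 5 CG, 89.3% and 80.1% at 6 to 10, and 98.6% and 96.9% at 11 to 20.

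More bases were covered in sciATACv3 at CG-rich starts and fewer at CG-poor starts. The mean number of covered bases within 1 kb of a start was 1529 bp in sciATACv2 and 1683 bp in sciATACv3 at starts with over 20 CG, a ratio of 1.10. At starts with 0 to 2 CG the means were 367 bp and 272 bp, a ratio of 0.741, with 0.819 at 3 to 5, 0.930 at 6 to 10 and 1.08 at 11 to 20. The ratio for all covered bases was 0.732, so the CG-poorest starts were covered in about that proportion and CG-rich starts above it. Where both libraries had a start peak, sciATACv3 covered more bases at 73.7% of the 7090 starts with over 20 CG and at 40.6% of the 960 starts with 0 to 2 CG. The widest start peak, in contrast, had a larger median in sciATACv3 at both ends of the CG range, 1881 bp against 1566 bp with over 20 CG and 1179 bp against 1097.5 bp with 0 to 2 CG.

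**Figure D2:**
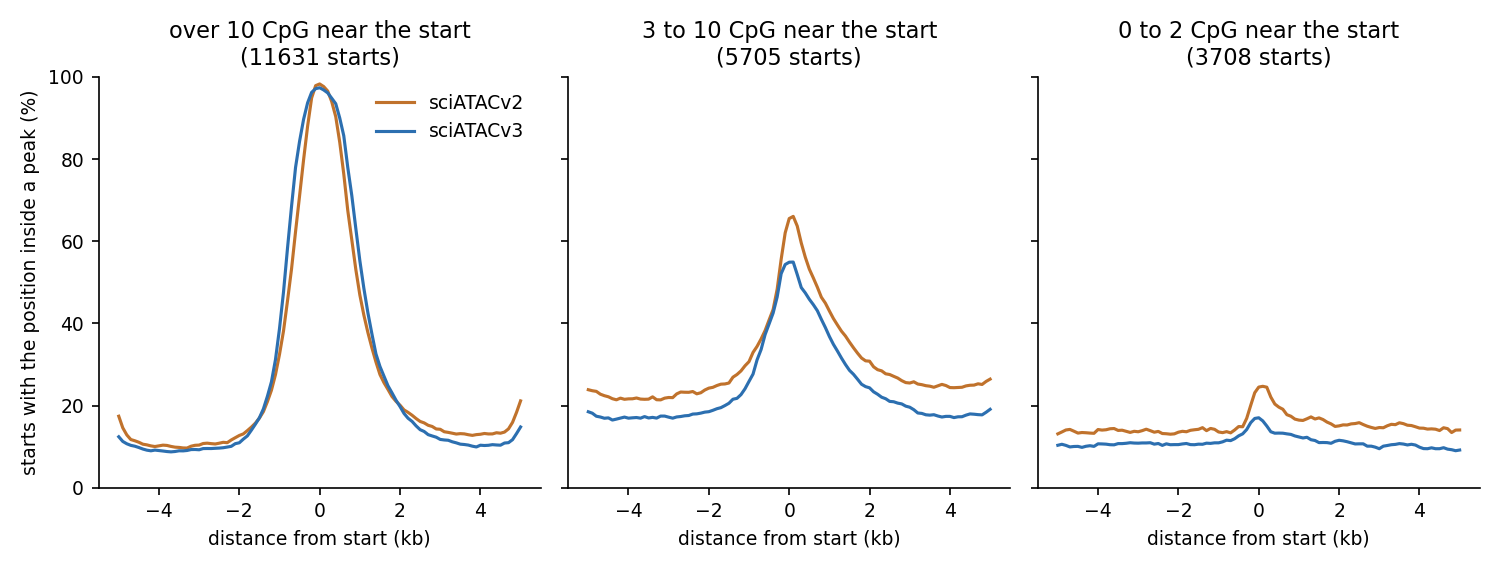
Percent of annotated starts at which the position at a given distance (kb, upstream negative) lies inside a peak, for starts with over 10, 3 to 10 and 0 to 2 CG dinucleotides. With over 10 CG, the curves nearly meet at the start, sciATACv3 is higher from 200 to 1500 bp upstream and from 300 to 1900 bp downstream, and it is lower farther out; in the other groups sciATACv3 is lower at the start.

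The profile around starts shows where the difference lay. With over 10 CG, the start itself was inside a peak at 98.3% of 11631 starts in sciATACv2 and 97.4% in sciATACv3. At 300 bp upstream the shares were 88.0% and 93.7%, and at 1000 bp downstream 46.9% and 55.3%. Farther upstream the order was reversed, with 10.4% and 9.26% at 3000 bp and a wider gap, 17.4% and 12.4%, at the edge of the profile at 5000 bp. With 0 to 2 CG, the start was inside a peak at 24.5% of starts in sciATACv2 and 17.0% in sciATACv3.

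Sorting the starts by the library that held a peak gave 16223 with both, 1246 with sciATACv2 only, 185 with sciATACv3 only and 3390 with neither. The median CG number was 18 in the first class, 3 in each of the single-library classes and 2 in the last. The sciATACv1 list had a peak at 97.49% of the starts with both, 37.9% of those with sciATACv2 only, 22.7% of those with sciATACv3 only and 4.07% of those with neither.

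For the GC box, the TATA box and the ETS core, both single-library classes differed from starts with both in the same direction. The GC box GGGCGG, which Sp-family factors bind, was in 46.7% of all windows on either strand, in 58.3% of those with both, 15.7% of those with sciATACv2 only and 10.3% of those with sciATACv3 only. The TATA box letters TATAAA were in 12.7% of all windows, 7.95% of those with both, 22.2% with sciATACv2 only and 25.9% with sciATACv3 only. The ETS core CCGGAAG was in 11.7% of all windows, 14.4% with both, 3.69% with sciATACv2 only and 1.08% with sciATACv3 only. GGGCGG and CCGGAAG hold a CG themselves, so their shares follow the CG number. AP-1 letters TGAGTCA were in 4.69% of all windows, 3.85% with both, 7.30% and 8.65%, and CCAAT in 38.5% of all windows, 37.0% with both, 38.2% and 43.8%. The E-box CAGCTG was in 15.7% of all windows, 16.1% with both, 19.1% and 17.3%. At starts with neither, the GC box was in 4.54%, the TATA box in 31.0%, the ETS core in 2.27% and AP-1 letters in 7.49%. CCAAT was in 45.5% of these and the E-box in 12.3%. For the GC box, TATA box, ETS core and AP-1 letters, the difference from starts with both was thus not particular to single-library starts. None of these 6 motifs lies within another. A match is a description of letters and not a bound site.

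By gene, start peaks listed in sciATACv2 and not in sciATACv3 included 16 of the 49 markers of other tissues that had an annotated start. Of 17273 protein-coding genes with an annotated start, 14120 had a start peak in sciATACv2 (81.7%) and 13239 in sciATACv3 (76.6%). A start peak was in sciATACv2 alone for 1015 genes (5.88%) and in sciATACv3 alone for 134 (0.776%), while 13105 had it in both (75.9%) and 3019 in neither (17.5%). Of 49 genes with an annotated start on 7 lists of markers known from other tissues, 35 had a start peak in sciATACv2 and 19 in sciATACv3. All 16 that differed were in sciATACv2 alone (32.7% of the 49, against 5.88% of all genes). Of the 89 brain marker genes, 2 were in that class (2.25%): Pcp2, of cerebellar Purkinje cells, and Tmem212, an ependymal gene. The 49 genes had a median of 5 CG at their CG-richest start and the 89 a median of 13, so tissue and CG number moved together, and their parts were not separated. Counted by start rather than by gene, a peak in sciATACv2 only was present at 12.1% of all starts with 0 to 2 CG. It was present at 13.9% of those with 3 to 5 and 10.2% of those with 6 to 10. The lists were also chosen with earlier results of these data known.

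The 16 genes came from all 7 lists. From epidermis they were Krt10, Krt14, Col17a1 and Ivl, which encode keratins, a hemidesmosome collagen and the cornified envelope protein involucrin. From islets they were Ins1, Iapp and G6pc2, with insulin and amylin among their products. From germ cells they were Ddx4, Sycp1, a synaptonemal complex protein, and Prm2, a protamine that packs sperm DNA. Lymphocytes gave Cd8a and Lck, a T cell co-receptor and its kinase. Erythroid cells gave Gata1, their master transcription factor, and Alas2, the first enzyme of heme synthesis. Liver gave Hnf4a and skeletal muscle Acta1. Their widest start peaks in sciATACv2 ranged from 500 bp, as at Krt14, Gata1 and Hnf4a, to 2673 bp at Acta1 and 2439 bp at Lck. Acta1 had 12 CG and Sycp1 21, so not every one of them was CG-poor. A missing start peak did not always go with fewer peaks around the gene. Counting the gene span and 5 kb on each side, sciATACv2 and sciATACv3 held 6 and 5 peaks at Acta1 and 4 and 3 at Prm2. By the same count, Alas2 had 10 and 1 and Ivl 7 and 1.

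**Figure D3:**
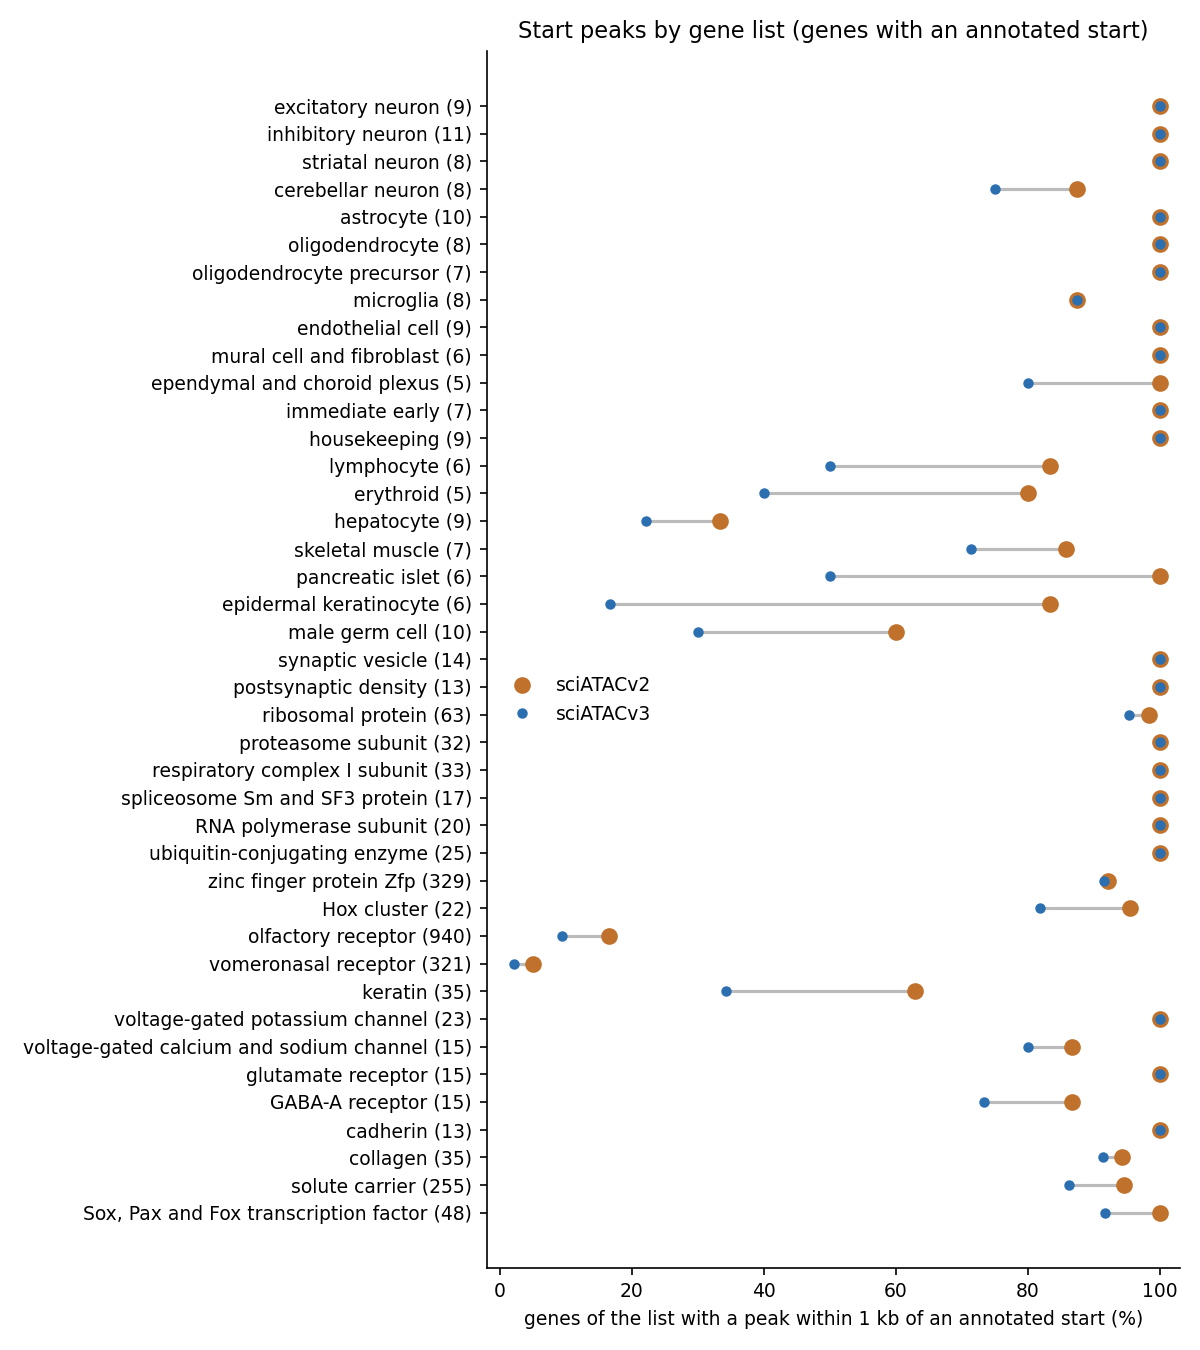
Percent of the genes of each list with a peak within 1 kb of an annotated start, for lists of 5 or more such genes (numbers in brackets). Most lists of brain cell types, synapse and housekeeping complexes sit at 100% in both libraries, while cerebellar neuron genes (87.5% and 75%) and ependymal genes (100% and 80%) are lower in sciATACv3, as are lists of other tissues, keratins and chemosensory receptors.

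The plot of start peaks by list shows more families, to be read beside all genes with an annotated start, of which 81.7% had a start peak in sciATACv2 and 76.6% in sciATACv3. Olfactory receptors, a family of odorant sensors transcribed in nasal neurons, had start peaks at 155 of 940 genes in sciATACv2 and 88 in sciATACv3, with 87 in sciATACv2 alone (9.26%, against 5.88% of all genes) and 20 in sciATACv3 alone (2.13%, against 0.776%). Vomeronasal receptors, which sense pheromones, had 16 and 7 of 321, and their 9 in sciATACv2 alone (2.80%) were below the share of all genes. Keratins, the intermediate filaments of epithelia, had 22 and 12 of 35, with 10 in sciATACv2 alone. Members of these families lie in clusters of similar copies, and the sources used here do not say how reads that map to several of them were treated, so their values are uncertain. Solute carriers had 241 and 220 of 255, and Sox, Pax and Fox transcription factors 48 and 44 of 48. The 32 proteasome subunits, 33 respiratory complex I subunits, 25 ubiquitin-conjugating enzymes, 14 synaptic vesicle and 13 postsynaptic density genes all had a start peak in both. The median CG number at the CG-richest start ranged from 19 to 33 over these lists. Of all starts with 11 to 20 CG, 98.6% had a peak in sciATACv2 and 96.9% in sciATACv3.

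A few start peaks of 1 library were wide, and these genes were picked after their values were seen. Besides Ascl3, sciATACv3 alone had a start peak of 2403 bp at Tchh, which encodes the hair follicle protein trichohyalin. In sciATACv2 alone there were start peaks of 3811 bp shared by the neighbouring X-linked genes Gm4779 and 8030474K03Rik, 3691 bp at Prss56, a serine protease of the eye, and 3283 bp at Fscn2, an actin bundler of photoreceptors. The next sciATACv3 peak to the one of 3811 bp was 56 bp away, so a start peak can be counted in 1 library although the other holds a peak nearby.

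Gene windows were then compared by their share of all peaks of a library. A window is a gene span with 5 kb on each side, and 7286 of 21627 protein-coding genes had the 30 or more peaks, over both libraries, that the comparison asked for. The log2 ratio of shares, sciATACv3 over sciATACv2, had a median of 0.20, and of 0.17 when covered bases were used. In numbers of peaks, 6910 windows held fewer in sciATACv3, 278 more and 98 the same. The share was at least 1.5 times higher in sciATACv3 for 723 genes (9.92%) and at least 1.5 times lower for 357 (4.90%). Which group is larger depends on the shift, since ratios centred on the median of all tested genes put 230 genes higher and 660 lower. Of the 723 higher genes, 376 (52.0%) held at least as many peaks in sciATACv3 as in sciATACv2, and the other 347 held fewer. The counting interval of the ratio lay wholly above 1 for 297 of the 723 and wholly below 1 for 202 of the 357. It lay wholly beyond the fold for 1 higher and 36 lower genes. The 723 and 357 genes were picked by a ratio from the same peaks, so the intervals are no separate check of the calls. Among them, whether an interval was clear of 1 followed the number of peaks. With 30 to 49 peaks it was clear for 44 of 338 higher and 39 of 145 lower genes. With 200 or more peaks it was clear for all 28 higher and all 44 lower genes. The intervals also treat the peaks of a window as independent, which was not tested.

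Suz12 had the highest ratio, and it held more peaks in sciATACv3 in number as well. Its window (gene at chr11:79993106-80034123) held 8 peaks in sciATACv1, 11 in sciATACv2 and 23 in sciATACv3, a share ratio of 3.48 (1.63 to 7.90) and a log2 ratio of 1.74. Taf15, an RNA-binding protein of the FET family, on the same chromosome, went from 12 to 21 peaks (share ratio 2.91, 1.37 to 6.49). Acer3, an alkaline ceramidase, went from 12 to 21, Uimc1, a ubiquitin-binding DNA repair protein, from 14 to 24, and Vps35, a subunit of the retromer that sorts endosomal cargo, from 16 to 25. Slc25a36, a mitochondrial nucleotide carrier, went from 17 to 26. Rhoh, a small GTPase of blood cells, went from 12 to 18. With 11 to 14 sciATACv2 peaks, as at Suz12, Taf15, Acer3, Uimc1 and Rhoh, a window reached 30 only if sciATACv3 held more peaks. At an equal share a window holds 0.602 times as many sciATACv3 as sciATACv2 peaks. By that measure Vps35 and Slc25a36, with 16 and 17 in sciATACv2, would also have stayed under 30. All genes named in this paragraph thus entered the comparison through the library where they are high, and the intervals do not allow for that.

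At the other end stood genes with few sciATACv3 peaks. Each window named in this paragraph held 30 or more peaks in sciATACv2 alone, and so passed the filter through that library. Wnt2, a secreted Wnt ligand, had 13 peaks in sciATACv1, 33 in sciATACv2 and 3 in sciATACv3 (chr6:17985474-18032772), a share ratio of 0.151 (0.0296 to 0.482). Its near neighbour Cftr, an epithelial chloride channel (chr6:18170687-18322770), went from 56 to 8 (share ratio 0.237, 0.0977 to 0.501), in a window that does not overlap that of Wnt2. Hdx, an X-linked homeobox gene, went from 40 to 5, and Mme, the peptidase neprilysin that degrades amyloid beta, from 47 to 6. Cntnap3, a contactin-associated cell adhesion protein, and Zpbp, a sperm protein that binds the egg coat, each went from 35 to 5, Cenpe, a kinetochore motor, from 33 to 5, and Bche, butyrylcholinesterase, from 37 to 6. Wnt2, Cftr, Hdx, Mme, Cntnap3, Zpbp, Cenpe and Bche nevertheless had a start peak in both libraries. At Cftr the widest start peak was 801 bp in sciATACv2 and 2864 bp in sciATACv3, and at Mme 1101 bp and 2109 bp. At Cenpe it was 1637 bp and 1576 bp, and at Bche 1250 bp and 1169 bp, so the width of the start peak went either way among these genes.

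Among tested genes, those with a higher share were the shorter ones and those with a lower share the longer ones. The median span was 48.0 kb in the higher group, 65.2 kb in the genes between the folds and 122.6 kb in the lower group. Of tested genes over 300 kb, 13.6% had a lower share and 1.99% a higher one, and of those from 5 to 20 kb none had a lower share and 20.2% a higher one. Of 6803 genes from 5 to 20 kb, only the 114 with 30 or more peaks were tested, and without that filter the median log2 ratio was 0.08 from 5 to 20 kb and 0.13 over 300 kb. A start with over 10 CG was present in 90.4% of the higher and 61.2% of the lower genes. Long genes hold more peaks, and their ratios carry less counting error. Among the 830 genes with 200 or more peaks, 28 were higher and 44 lower, and the interval lay beyond the fold for 0 and 15 of these. A low case is Foxp2, a transcription factor of deep cortical layers, striatum and Purkinje cells, with 204 peaks in sciATACv1, 280 in sciATACv2 and 79 in sciATACv3 (share ratio 0.469, 0.361 to 0.604). Tcf12, a broadly expressed E-protein, stood on the other side with 165 and 166 (1.67, 1.34 to 2.09).

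The medians of the synaptic gene lists were above that of all tested genes and that of collagens below it. Of 13 tested synaptic vesicle genes, 2 were higher and 0 lower, with a median log2 ratio of 0.53 (0.40 over all 18 members) against 0.20 for all tested genes. Syn1, a phosphoprotein that tethers vesicles, had 42 peaks in sciATACv2 and 41 in sciATACv3, and Syt1, the calcium sensor of release, 363 and 316. Of 17 tested postsynaptic density genes, 2 were higher and 0 lower (median 0.36, and 0.35 over all 18). Dlgap3, a scaffold of striatal synapses, had 38 and 40 peaks, and Dlg2, a scaffold with the most peaks of its list, 1100 and 847. Among ion channels and receptors, 0 of 21 tested potassium channels were higher and 1 lower, and 0 of 22 glutamate receptors higher and 2 lower. Of 18 calcium and sodium channels, 0 were higher and 3 lower, Scn9a among the latter with 65 and 20 peaks. The medians of these lists, in this order, were 0.31, 0.215 and 0.17, and that of 13 tested GABA-A receptors was 0.32. A median above that of all tested genes was thus not particular to the synaptic lists. Over all tested genes 9.92% were higher and 4.90% lower.

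Of 34 tested collagens, 0 were higher and 7 lower, where 4.90% of all tested genes were lower, with a median log2 ratio of -0.14. Col11a1, a fibrillar collagen of cartilage, went from 61 peaks to 12, and Col25a1, a transmembrane collagen made by neurons, from 235 to 88. Of 8 tested proteasome subunits 3 were higher, with a median of 0.58 (0.28 over all 39 members), and Psmb2, a core subunit, went from 17 to 20 peaks. Of 19 tested ubiquitin-conjugating enzymes 4 were higher (median 0.46, and 0.42 over all 31), and of 5 tested complex I subunits 2 were (median 0.49, and 0.14 over all 37). None of these 3 lists had a lower gene. Solute carriers, at 146 tested genes the longest list, had 7 higher and 9 lower and a median of 0.12, from Slc25a36 at 1.32 to Slc13a1, a kidney sulfate transporter, at -1.73 (29 and 5 peaks). Of 75 tested zinc finger genes named Zfp, 14 were higher and 5 lower (median 0.27).

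**Figure D4:**
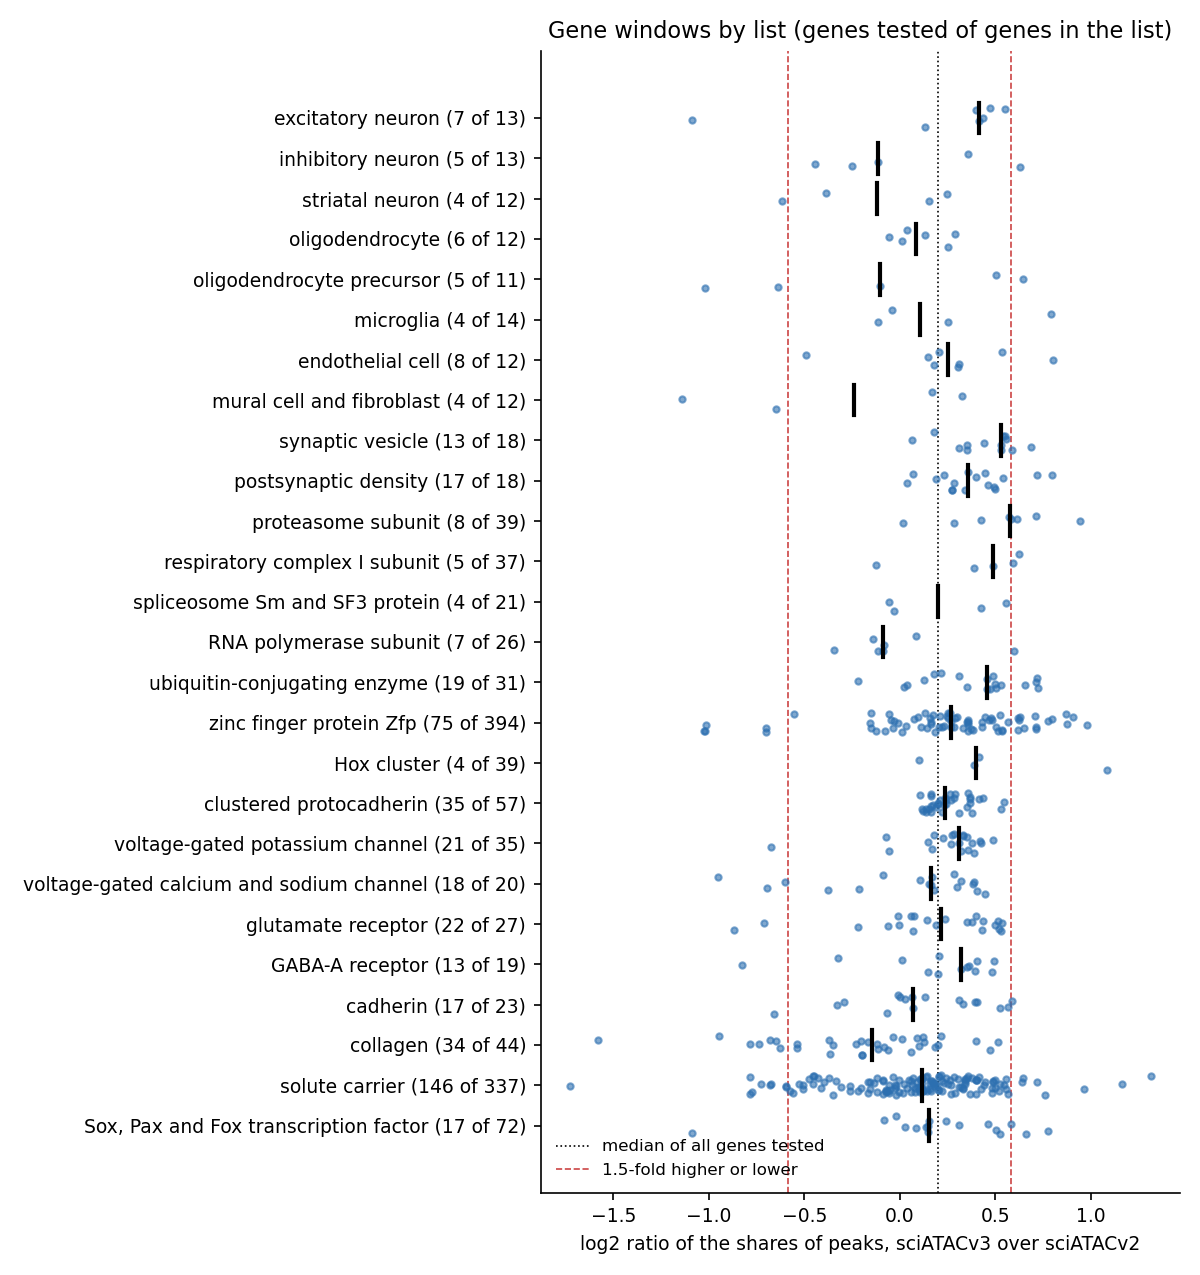
Log2 ratio of the share of peaks in each tested gene window, sciATACv3 over sciATACv2, by list (points are genes, spread vertically at random to part them; bars are medians; numbers give genes tested of genes in the list). Synaptic vesicle and proteasome genes lie mostly right of the median of all tested genes (0.20), and collagens mostly left of it.

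Markers of brain cell types lay on both sides of the median of all genes. Of the 50 tested genes of the 11 lists, 4 were higher (8%, against 9.92% of all tested genes) and 7 lower (14%, against 4.90%). Over all 133 members, without the filter, 93 log2 ratios lay above 0 and 40 below. Their median was 0.255, against 0.085 over all genes without the filter. A window with an equal share in both libraries holds 0.602 times as many peaks in sciATACv3. Excitatory neuron genes had a median of 0.42, with Foxp2 as the single lower member. Among inhibitory neuron genes, Gad1, which makes most of the neuronal GABA, had 32 and 30 peaks, while Gad2, its synaptic isoenzyme, had 50 and 22, and Erbb4, the neuregulin receptor, 403 and 224. The median of this list was -0.11 over 5 tested genes and 0.37 over all 13. Drd2, the dopamine receptor of indirect-pathway striatal neurons, had 36 and 14. Among endothelial genes, Flt1, a VEGF receptor, had 35 and 37, and Tek, the angiopoietin receptor, 40 and 17. Among microglial genes, Cx3cr1, the fractalkine receptor, had 17 and 18, and P2ry12, a purine receptor, 41 and 24. With 17 in sciATACv2, the window of Cx3cr1 would have stayed under 30 at an equal share. Oligodendrocyte precursor genes had 1 higher member, Bcas1 (21 and 20), and 2 lower ones, Lhfpl3 (225 and 87) and Vcan, a matrix proteoglycan (58 and 17). The median of that list was -0.10 over 5 tested genes and 0.50 over all 11. Of 4 tested mural cell and fibroblast genes 2 were lower, Myh11, smooth muscle myosin, with 52 and 14 peaks, and Abcc9, a potassium channel regulator of pericytes, with 29 and 11. The median of their list was -0.24 over 4 tested genes and -0.18 over all 12. Abcc9 was named after its values were seen. Slc1a2, with the most peaks among the tested astrocyte genes, had 93 and 71 and lay within the folds. For Gad1 the covered bases gave a log2 ratio of 0.15 where the peak numbers gave 0.63.

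On the scale of the genome, the sciATACv3 list was thinnest where there are no genes. Of 2570 bins of 1 Mb with a peak, 221 touched no protein-coding gene. These bins held 42357 peaks in sciATACv2 (4.98% of its list) and 13710 in sciATACv3 (2.68%), a share ratio of 0.538 (0.528 to 0.548), and 0.529 in covered bases. For sciATACv1 over sciATACv2 the same ratio was 0.906 (0.892 to 0.919). In bins with 1 to 2 genes the sciATACv3 ratio was 0.898, with 3 to 9 genes 1.01, with 10 to 29 genes 1.11 and with 30 or more 1.09. The share of sciATACv2 peaks met by sciATACv3 was 27.9% in the gene-free bins and 65.6% in bins with 10 to 29 genes, while sciATACv3 peaks were met at 79.4% and 86.7%. The peaks of sciATACv3 in gene-free bins were thus fewer, and mostly ones that sciATACv2 held as well.

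**Figure D5:**
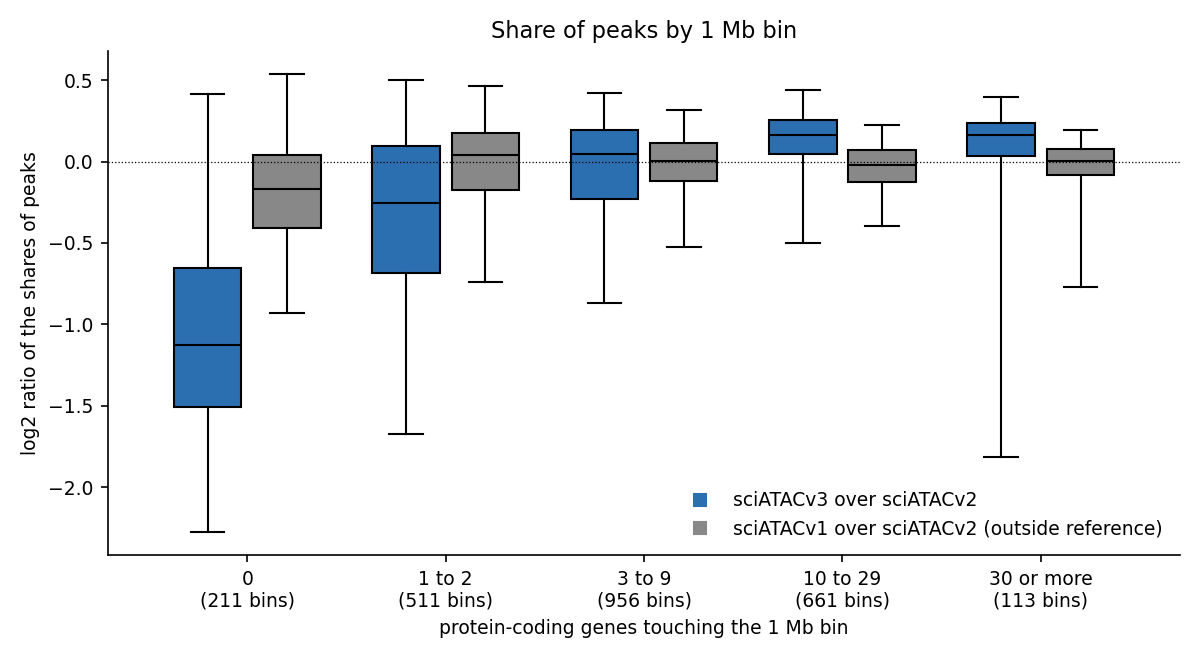
Log2 ratio of the share of peaks per 1 Mb bin by the number of protein-coding genes touching the bin, for bins with 100 or more sciATACv2 and sciATACv3 peaks (boxes are quartiles, whiskers span the central 95% of bins). The median for sciATACv3 over sciATACv2 is -1.13 in gene-free bins and 0.16 in bins with 10 to 29 genes; for sciATACv1 over sciATACv2 these are -0.17 and -0.02.

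Bins with 100 or more peaks numbered 2452, and the share was at least 1.5 times lower in sciATACv3 in 411 (16.8%) and at least 1.5 times higher in 16 (0.653%). The lower bins included 165 of 211 without a protein-coding gene (78.2%), 154 of 511 with 1 to 2 genes, 70 of 956 with 3 to 9, 12 of 661 with 10 to 29 (1.82%) and 10 of 113 with 30 or more (8.85%), so the share of lower bins did not decline throughout. In the same order, the 16 higher bins were 5 of 211 (2.37%), 6 of 511, 4 of 956, 1 of 661 and 0 of 113. Higher bins were thus also most frequent among gene-free ones. Across the 2452 bins, the log2 ratio and the number of protein-coding genes had a Spearman correlation of 0.469, a description over bins that share their libraries. The 3 lowest bins held no protein-coding gene. At chr13:87000001-88000000 there were 89 peaks in sciATACv1, 118 in sciATACv2 and 9 in sciATACv3, at chr14:90000001-91000000 132, 240 and 21, and at chr1:49000001-50000000 111, 132 and 12. The highest bin, at chr7:136000001-137000000, holds Mgmt, which repairs alkylated guanine, and had 70, 86 and 109 peaks. The next, at chr8:89000001-90000000, holds Sall1, a transcription factor of microglia and neural progenitors, and had 151, 132 and 146. The one after it, at chr2:171000001-172000000, holds no protein-coding gene and had 83, 72 and 79. In each of the 3 lowest bins the sciATACv1 number lay between those of the other libraries. These bins were picked as the lowest for sciATACv3 over sciATACv2, and the lists differ in length, so nothing more is read from that order.

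The X chromosome stood apart from the 19 autosomes in its share of peaks met. The number of X peaks in sciATACv3 was 0.505 times that in sciATACv2, against 0.602 over all chromosomes. Autosomes differed among themselves in this, with 54237 sciATACv2 and 28710 sciATACv3 peaks on chromosome 3 and 36292 and 25650 on chromosome 7. The X had the lowest share met of 20 chromosomes in both lists, 44.3% in sciATACv2 and 80.3% in sciATACv3. The next lowest were 52.7% and 83.9%. Of 172 tested X-linked genes, 32 had a lower share (18.6%) and 17 a higher one (9.88%), against 4.57% and 9.92% of 7114 autosomal genes, and the medians were -0.04 and 0.20. The sex of the animals is unknown, and its part in these values was not tested.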

How the data were processed

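Each library is described by a list of peak positions deposited by the authors, with chromosome, start and end and no other measurement. ArchR, MACS2 and the build mm10 are named per the submitters' processing notes, with no version or setting, and thresholds and the pooling of nuclei are not stated. All peaks of sciATACv2 and sciATACv3 on the autosomes and X were used, which is every line of both lists. Peaks do not overlap within a list. The depth per sample is unknown.

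Overlaps, shares and ratios were computed in Python 3.11.15 with numpy 2.4.6, pandas 2.3.3 and scipy 1.17.1, and the functions were tested on simulated data. Shares carry exact Clopper-Pearson intervals and share ratios exact conditional binomial intervals at 95%, for counting error only. The log2 ratio for a gene window adds on average 0.5 peaks (100 bp for covered bases), split in proportion to the library totals. Gene spans and promoter windows are those of RefSeq for GRCm38.p6, the assembly that mm10 names. The promoter table held 21044 starts of 17273 of the 21627 protein-coding genes, and genes without an entry were left out of the start peaks. Start peaks replaced peaks at either end of a span, which had been planned for a table without strand.

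Genes were grouped by 42 lists, and 1 listed symbol matched no gene. The genes named are, by rule, those with the most peaks and the highest and lowest ratio of each list, the 10 highest and 10 lowest over all tested genes, list members with a start peak in 1 library, and the genes at the widest unmet peaks, at peaks over the most partners and in the most extreme bins, and exceptions are marked in the text. The members and lists were chosen with earlier results of these data known. Alternatives in overlap, width, distance, flank, filter and pseudocount are given in the closing section. Some results are not reported here.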

Additional observations from a re-analysis of the deposited data

How the results depend on the processing

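No paired analysis was possible because each version has 1 library, and no library could be left out. The alternatives kept the order of the lists. The share of peaks met was 79.1% for sciATACv3 and 51.6% for sciATACv2 when at least 50% of the peak had to be covered, 78.2% and 63.0% with peaks over 500 bp in both lists, and 86.5% and 59.1% on autosomes alone. Shared bases came to 42.6% of the union with peaks over 500 bp and 46.3% on autosomes. With sciATACv2 peaks required to lie wholly within the sciATACv3 peak, 18610 sciATACv3 peaks spanned 2 or more. Gene spans held 63.8% of sciATACv3 and 57.6% of sciATACv2 peaks with protein-coding genes only, 71.9% and 68.6% with peaks over 500 bp, and 71.9% and 65.6% with any overlap.

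Genes with a share at least 1.5 times higher in sciATACv3 numbered 341 with peaks over 500 bp, 1944 with 10 or more peaks, 3068 without a filter and 53 at a fold of 2, from 4125, 15103, 21627 and 7286 genes. Genes with a lower share numbered 183, 1201, 2613 and 100 under these, and 594 with flanks of 20 kb, from 14342 genes. Ratios centred on the median of all tested genes, added after seeing the data, gave 230 higher and 660 lower. At a fold of 2 and after centring the lower genes therefore outnumbered the higher ones. The median over tested genes was 0.15 with flanks of 20 kb, 0.17 in covered bases, 0.13 with peaks over 500 bp, 0.21 with an equal pseudocount, 0.15 with 10 or more peaks and 0.085 without a filter. Of 28 lists with 3 or more tested genes, 20 kept the sign of their median in every alternative, and the 8 others included inhibitory neuron (-0.32 to 0.37), oligodendrocyte precursor (-0.13 to 0.50) and striatal neuron genes (-0.22 to 0.14). Gad1 reversed, to -0.40 with peaks over 500 bp. The alternatives were read for 34 of the named genes past the fold, of which 27 stayed past it in all alternatives that tested them. Uimc1, Zpbp, Bcas1, Vcan and Abcc9, also past the fold, were not among these.

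Added after seeing the data, the share ratio in bins without a protein-coding gene was 0.599 with peaks over 500 bp and 0.626 in bins of 500 kb. Start peaks of genes of other tissues numbered 34 in sciATACv2 and 17 in sciATACv3 at 500 bp from the start, and 28 and 17 with peaks over 500 bp. Those of brain marker genes numbered 83 in both libraries at 500 bp, and 79 and 80 with peaks over 500 bp. The lists give no depth, and its part in the differences was not tested.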

Other observations

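Further lists were read in the same way and are given as values, with 9.92% of all tested genes higher and 4.90% lower. Of all genes with an annotated start, 81.7% had a start peak in sciATACv2 and 76.6% in sciATACv3. All 7 immediate early genes and 9 housekeeping genes with an annotated start had a start peak in both libraries, and ribosomal protein genes had one at 62 of 63 starts in sciATACv2 and 60 in sciATACv3. Hox genes, which set position along the body axis and are largely silent in forebrain, had one at 21 and 18 of 22. Of their 4 tested members, Hoxc6 was higher, with 13 peaks in sciATACv2 and 17 in sciATACv3. With 13 in sciATACv2, its window reached the 30 peaks asked for only because sciATACv3 held more. The windows of neighbouring Hox genes share peaks. GABA-A receptor subunits had a start peak at 13 and 11 of 15 genes, and of 13 tested members Gabrg1 was the 1 past the fold, with 27 peaks and 9. Of 17 tested cadherins, Cdh11 was higher (108 and 98) and Cdh18 lower (394 and 150), on either side of Cdh13, which had the most peaks (601 and 368).

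Among transcription factors of the Sox, Pax and Fox families, 17 genes were tested, 2 were higher and 1 lower. Foxj3 had 56 peaks in sciATACv2 and 58 in sciATACv3, and Sox5, with the most peaks, 472 and 280. Sycp2, a synaptonemal complex gene on chromosome 2, held 1 of the 5 widest sciATACv3 peaks met by no sciATACv2 peak, at 2878 bp, and its window held 24 and 30 peaks (share ratio 2.08, 1.17 to 3.71). That peak met no sciATACv1 peak and lay 466 bp from the nearest sciATACv2 peak.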
